A study of Mus musculus with 312 samples.

Results

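Basal cells of the pregnant mouse mammary gland were divided by the transcripts of 14 genes of cell division, and the dividing class was compared with the rest. A cell was called cycling when at least 3 of the genes Mki67, Top2a, Ccnb1, Ccnb2, Ccna2, Cdk1, Birc5, Cenpf, Tpx2, Plk1, Cdc20, Nusap1, Ube2c and Aurkb reached 100 CPM, where CPM is the number of read pairs of a gene per 1000000 read pairs assigned to genes other than mitochondrial and ribosomal protein genes in that cell. Of 75 pregnancy basal cells, 71 held at least 50000 assigned read pairs and 1000 genes, and cell 71 was set aside, which left 70 cells. Among these, 15 cells were cycling and 55 were not, out of 312 cells in the whole series. The classes were selected on the levels of the 14 genes, so differences in those genes are a description of the choice and not a result.

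All cells came from mammary glands of FVB/NJ mice and carry the label Basal, with the age given as Pregnancy for these cells and as Adult for the remainder. No genotype, transgene or treatment is named, and neither the day of pregnancy nor the animal of origin of a cell is given in the labels. Single cells were captured in separate chambers of a Fluidigm C1 instrument after sorting, and libraries were made with Nextera XT and sequenced on a NextSeq 500. The study lists pregnancy cells captured on this instrument only as total epithelium from mid-pregnancy, and more of them than are held here. Whether the present cells are among those is not stated. The basal identity of the present cells therefore rests on their label and on the markers below. Because animals are not named, the pregnancy cells form 1 sample, no test was possible, and medians, ranges and ratios over cells are given with no replicate check.

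Basal cells form the outer layer of the mammary ducts and alveoli. They carry keratins and adhesion molecules of stratified epithelium beside the actin and myosin machinery of smooth muscle, with which they squeeze milk from the alveoli in response to oxytocin. During pregnancy the epithelium multiplies to build the alveoli. Cells that divide copy their DNA in S phase under control of E2F factors, and then switch on the genes of G2 and mitosis, many of which are bound by the DREAM and MuvB complexes at the CHR element and by NF-Y at CCAAT boxes. Most genes of the rule belong to this later wave, so a cell in early S phase need not meet it.

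The 70 cells held 124287 to 529822 read pairs in all, and no 2 of them had identical counts. Median assigned reads were 226960 in cycling and 243958 in other cells, so the classes were of like depth. After each cell was thinned at random to 50000 reads, cycling cells had a median of 3601 genes and other cells 3094, and 13 of 15 cycling cells lay above the median of the others. The part of this difference in gene number in the ratios below was not tested. Mitochondrial genes took a median of 18.7% and 17.9% of all reads; every other share of reads below is of assigned reads, which leave out mitochondrial and ribosomal protein genes. All cells of both classes held at least 7 of 11 core basal genes (Krt5, Krt14, Krt17, Trp63, Acta2, Myh11, Mylk, Cnn1, Tagln, Myl9 and Cxcl14) at 100 CPM, with a median of 9 in each class.

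Markers of other cell types were sparse in both classes. No cell of either class held 3 or more of the 8 genes listed for immune cells, endothelium, pericytes or Schwann cells at 100 CPM. In cycling cells 3 of 8 immune genes, 4 endothelial, 4 pericyte and 2 Schwann cell genes were at 0 in every cell. Summed immune genes ranged from 0 to 1274 CPM in cycling cells and from 0 to 235 CPM in others, and the highest value, in cell 57, came mainly from the antigen presentation genes H2-Aa and Cd74. At least 3 fibroblast genes were found in cycling cell 44 and in other cells 38 and 62, and at least 3 milk protein genes in cycling cells 22 and 57 and in other cell 2. Cells 22 and 57 and other cell 62 also held at least 3 of Kit, Areg, Prlr, Ehf, Cited1, Csn1s2a, Csn2 and Csn3, luminal and milk protein genes on the lists of the study. Results without these 6 cells are given below for 5 lists.

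Within the rule, Mki67, a nuclear protein of dividing cells, reached 100 CPM in 14 of 15 cycling and 8 of 55 other cells. It ranged from 0 to 2415 CPM in cycling cells (median 392) and from 0 to 657 CPM in other cells (median 0). It lies on chr7:135689784-135716450 (GRCm38.p6). Top2a, the topoisomerase that untangles replicated DNA, ranged from 0 to 2555 CPM in cycling cells (median 82.6) and from 0 to 1533 CPM in other cells (median 6.13). Cdk1, the kinase that starts mitosis, ranged from 0 to 1305 CPM in cycling cells (median 6.86) and from 0 to 59.6 CPM in other cells (median 0). The ranges of all 3 genes overlapped between the classes, and the median of Cdk1 in cycling cells was far under 100 CPM, because different cells met the rule through different genes.

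Cenpf, a kinetochore protein, had the smallest log2 ratio of the 13 measured rule genes, 0.94, and reached 100 CPM in 11 of 15 cycling and 17 of 55 other cells. Tpx2, which organizes the spindle, did so in 9 of 15 cycling and 2 of 55 other cells. The cyclin genes Ccnb2 and Ccna2 reached it in 6 and 5 cycling cells and in none of the others. Plk1 was read in a single cell, cycling cell 57, at 9.95 CPM, below the level that counts for the rule. Reads in the 14 genes made up a median of 0.248% of assigned reads in cycling cells (range 0.0554 to 0.685%), against 0.0201% in other cells.

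**Figure D1:**
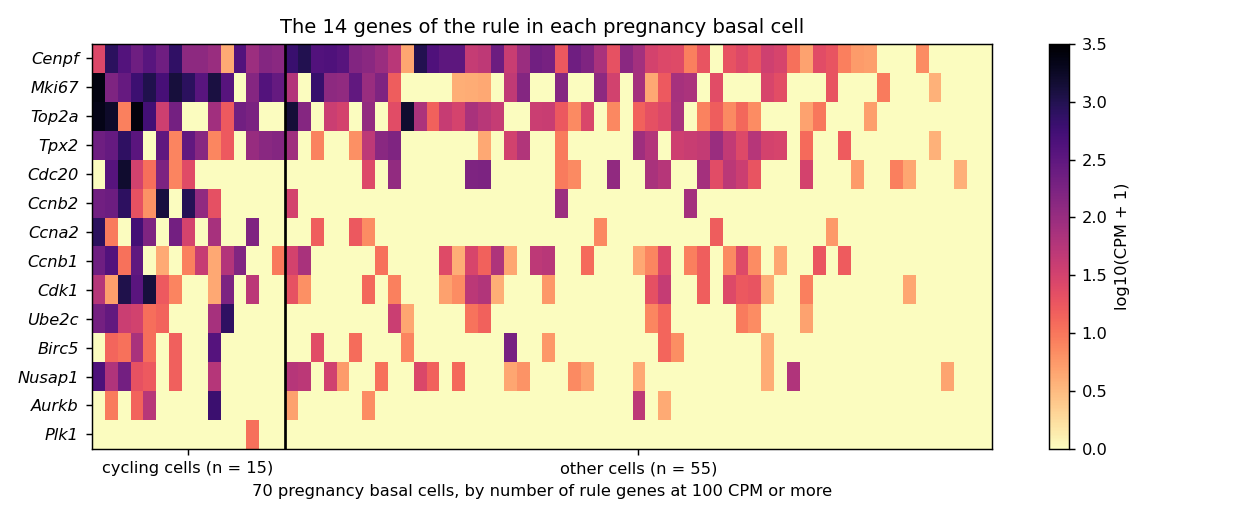
Each column is 1 of the 70 pregnancy basal cells and each row 1 of the 14 rule genes, shaded by log10(CPM + 1), with cells ordered by the number of rule genes at 100 CPM and the line separating 15 cycling from 55 other cells. Mki67 is dark in nearly all cycling cells, whereas Aurkb, Birc5 and Plk1 are blank in most of them, and several other cells carry Cenpf or Top2a.

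The rule draws a line through a continuous range. None of the 14 genes reached 100 CPM in 28 cells, 1 gene in 18 cells, 2 genes in 9 cells, 3 genes in 6 cells, 4 genes in 3 cells, 5 genes in 2 cells, 7 genes in 2 cells and 8 genes in 2 cells. Thus 6 of the 15 cycling cells lay just inside the limit and 9 of the 55 others just outside it. Cycling cells made up 15 of 70 cells (21.4%, exact Clopper-Pearson 95% interval 12.5 to 32.9%, which covers counting error only). With 2 genes required the number was 24, and with 5 genes it was 6. Of 237 adult cells 139 were retained, and the same rule was met by 5 of these 139 (3.60%, interval 1.18 to 8.19%). Whether this share differs between the stages was not tested, and stage and animals cannot be told apart.

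Sequences upstream of the start site are shown for genes of the later wave (Cdk1, Ccnb1, Ccnb2), a DNA replication gene (Mcm5) and a contractile gene (Acta2). Cdk1, Ccnb1 and Ccnb2 are genes of the rule, so their difference between the classes follows the choice of cells. Each is the 170 bases before the RefSeq start, 5′ to 3′ on the strand of the gene, from GRCm38.p6. Capitals mark the CHR word TTTGAA, the CCAAT box (ATTGG on the opposite strand) and the E2F words. The stretch of Cdk1 is chr10:69352913-69353082 on the minus strand, that of Ccnb1 chr13:100786487-100786656 (minus), that of Ccnb2 chr9:70421555-70421724 (minus), that of Mcm5 chr8:75109339-75109508 (plus) and that of Acta2 chr19:34255374-34255543 (minus).
Cdk1: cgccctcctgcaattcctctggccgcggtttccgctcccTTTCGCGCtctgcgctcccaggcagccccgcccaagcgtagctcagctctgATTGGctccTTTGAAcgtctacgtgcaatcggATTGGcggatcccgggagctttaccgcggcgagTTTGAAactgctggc
Ccnb1: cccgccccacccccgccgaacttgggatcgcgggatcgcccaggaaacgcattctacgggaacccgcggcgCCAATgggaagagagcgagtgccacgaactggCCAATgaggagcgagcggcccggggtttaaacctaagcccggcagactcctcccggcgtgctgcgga
Ccnb2: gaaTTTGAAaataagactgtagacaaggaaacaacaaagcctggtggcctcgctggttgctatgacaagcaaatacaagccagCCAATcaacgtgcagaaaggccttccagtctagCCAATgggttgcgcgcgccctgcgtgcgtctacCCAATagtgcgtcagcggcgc
Mcm5: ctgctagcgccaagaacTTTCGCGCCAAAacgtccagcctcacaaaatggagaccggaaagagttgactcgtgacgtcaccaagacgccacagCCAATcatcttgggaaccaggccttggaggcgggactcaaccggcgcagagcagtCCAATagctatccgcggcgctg
Acta2: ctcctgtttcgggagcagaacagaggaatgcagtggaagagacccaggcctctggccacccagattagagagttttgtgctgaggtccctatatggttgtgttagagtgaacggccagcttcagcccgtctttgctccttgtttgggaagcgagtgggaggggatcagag

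In Cdk1 the CHR words begin at -71 and -15 from the start, a CCAAT box lies at -80 and another at -48, and an E2F word lies upstream of them. In Ccnb2 there are 3 CCAAT boxes, at -87, -54 and -21, and a CHR word near the upstream end of the stretch. Another CHR word of Ccnb2 begins at +5, after the start and so outside the printed stretch. In Ccnb1 CCAAT boxes lie at -99 and -67. In Mcm5 the E2F word TTTCGCGC overlaps GCGCCAAA, which is TTTGGCGC on the opposite strand, and CCAAT boxes lie at -77 and -22. The Acta2 stretch holds none of the CHR, CCAAT and E2F words, which says only that these letters are not in this stretch.

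The same words were counted in all RefSeq promoter windows, which run from 250 bases before to 50 bases after the start, on both strands. The CHR words TTTGAA or TTCGAA were in 19.2% of 32851 windows, in 8 of 11 windows of the rule genes and in 39 of 50 windows (78.0%) of mitosis genes outside the rule. They were in 6 of 37 windows of DNA replication genes and in 2 of 20 windows of contractile genes. An E2F word (TTTCCCGC, TTTCGCGC, TTTGCCGC or TTTGGCGC) was in 2.26% of all windows, in 14 of 37 windows (37.8%) of DNA replication genes and in 3 of 50 windows of mitosis genes. CCAAT was in 37.4% of all windows, and in 76.0%, 62.2% and 55.0% of those of the mitosis, DNA replication and contractile genes. The CArG box, the site of serum response factor, was counted only where it matched its consensus exactly, in 1.63% of all windows and in 3 of 20 contractile windows. Boxes that deviate from the consensus, as those of smooth muscle actin promoters do, were not counted. Windows were held for 11 of 14 rule genes, 45 of 52 mitosis genes, 32 of 39 DNA replication genes and 17 of 20 contractile genes, and some genes have several windows. Tagln is among those with no window. A match is a description of the letters and not evidence of binding.

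Cycling cells kept the transcripts of the contractile apparatus, at levels somewhat under those of the other cells. Of 20 genes of this smooth muscle apparatus, 19 were measured, that is, their mean reached 10 CPM in one class or both. None of the 19 differed 2-fold or more in mean CPM in either direction, and 13 were lower in cycling cells. Among all 8789 genes outside the rule with that mean, 17.5% were at least 2-fold higher and 19.9% at least 2-fold lower in cycling cells. The ratios are log2 values of mean CPM plus 10, cycling over other. The contractile median was -0.42 and the median of all genes -0.04, and the former stayed below 0 in all 35 alternatives (-0.56 to -0.06). It was close to 0 in 3 of them, at -0.13 with the rule at 50 CPM, -0.088 against the 28 cells without a rule gene and -0.056 with 1 read per gene after thinning. The contractile genes took a median of 5.17% of assigned reads in cycling cells (range 1.55 to 9.02%) and 5.88% in other cells (range 2.84 to 19.3%), and 3 of 15 cycling cells lay above the median of the others.

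Acta2, smooth muscle actin (chr19:34240336-34255585, GRCm38.p6), ranged from 5299 to 44158 CPM in cycling cells (median 14051) and from 4024 to 110729 CPM in other cells (median 17540.5). Its log2 ratio was -0.35, and the ranges overlapped almost fully. Myh11, the smooth muscle myosin heavy chain, ranged from 1032 to 5542 CPM in cycling cells (median 3904) and from 607 to 13882 CPM in other cells (median 4766), with a log2 ratio of -0.50. Mylk, the kinase that activates myosin, ranged from 429 to 13555 CPM in cycling cells (median 6195) and from 1324 to 19941 CPM in other cells (median 7123), with a log2 ratio of -0.43. In each of these genes every cycling cell held over 100 CPM, and 5, 4 and 4 of 15 cycling cells lay above the median of the others. The lowest Mylk of all 70 cells was that of cycling cell 9. The sign turned for Acta2 with the rule at 50 CPM (0.0041) and for Mylk with 1 read per gene (0.055).

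Myl9, the regulatory light chain of myosin, had a log2 ratio of -0.54 (2156 against 3149.7 CPM on average). Tagln, an actin-binding protein of smooth muscle, had -0.44 (5692 against 7739.8 CPM). The actin crosslinker Flna, with -0.63 (2563 against 3977 CPM), and the smooth muscle actin Actg2, with -0.64 (756 against 1185 CPM), lay lowest in the list. All 4 were lower in mean and in median in cycling cells, within overlapping ranges. Actg2 and Acta2 are near-identical in coding sequence, so reads shared between them may be lost or split.

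A few contractile genes lay near 0 or went the other way. Cnn1 (calponin) and Tpm1 (tropomyosin) had log2 ratios of 0.04 and -0.01, each of which changed sign in 12 alternatives. Vcl, vinculin of the adhesion plaque, had 0.28, and Smtn, smoothelin, 0.80. Smtn ranged from 6.39 to 1248 CPM in cycling cells (median 186) and from 0 to 1418 CPM in other cells (median 74.1) and was above the median of the others in 11 of 15 cycling cells. Ratios varied less at high levels. Of 116 genes whose mean reached 1000 CPM, 0% were 2-fold higher and 1.72% were 2-fold lower (Chka and Nrg1). Their median was -0.05 and 63 of 116 were below 0, whereas 10 of the 12 contractile genes at that level were below 0, with a median of -0.42.

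**Figure D2:**
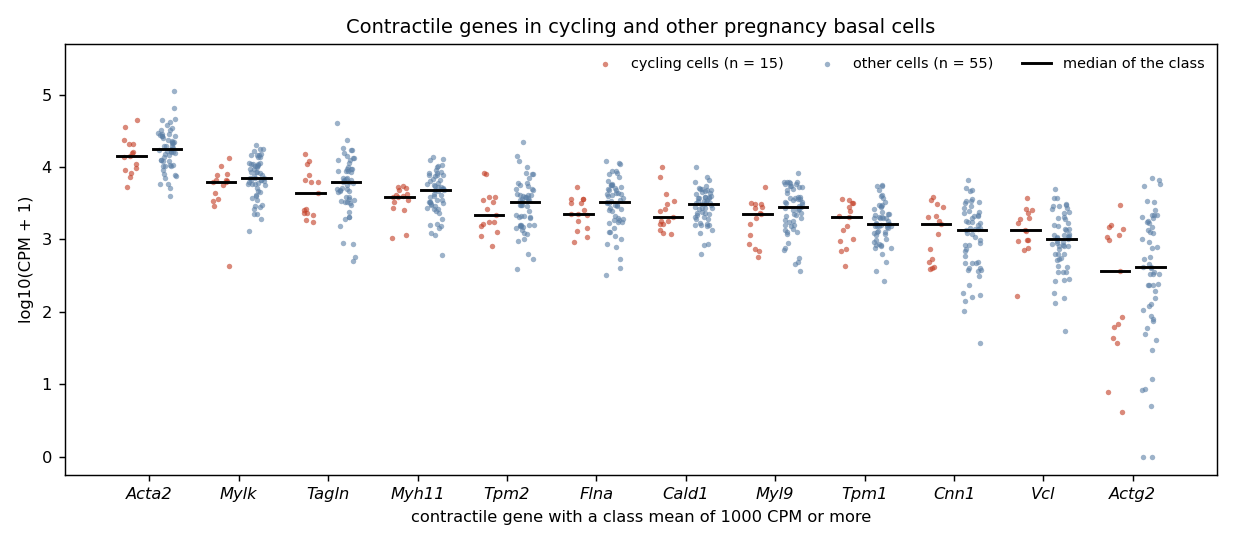
The vertical axis gives log10(CPM + 1) of the 12 contractile genes with a class mean of 1000 CPM or more; each point is a cell, red for 15 cycling and blue for 55 other cells, and bars are class medians. Medians of Acta2, Mylk, Tagln and Myh11 are slightly lower in cycling cells, those of Tpm1, Cnn1 and Vcl slightly higher, and the points of both classes cover much the same range.

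The contractile level did not decline evenly with the number of rule genes. Median shares of reads in contractile genes were 6.17%, 6.64% and 4.10% in cells with 0, 1 and 2 rule genes, and 5.17% and 5.10% in the 9 cells with 3 to 4 and the 6 cells with 5 or more. The lowest share among cycling cells, 1.55%, was that of cell 9, which held 8 rule genes, and the highest, 9.02%, that of cell 17, which held 5. Across the 70 cells Spearman's rho of the contractile share with the share of reads in rule genes was -0.26. Both shares come from the same library and total, so the value is a description. Without the 6 cells that carried luminal, milk protein or fibroblast genes, the contractile median over genes was -0.41 with 12 cycling cells.

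Regulators of contraction were mixed. Of 14 genes, 12 were measured, with a median of -0.22. None was 2-fold higher and 1 was 2-fold lower in cycling cells, beside 17.5% and 19.9% over all genes. Kcnmb1, a subunit of the potassium channel that relaxes smooth muscle, was that gene (-1.32), and its median was 0 CPM in cycling and 6.04 CPM in other cells. Oxtr, the oxytocin receptor, ranged from 0 to 2361 CPM in cycling cells (median 348) and from 0 to 3768 CPM in other cells (median 124). Its log2 ratio was 0.49, which went to 0.05 without cell 44 and turned to -0.45 when the rule required 200 CPM. Gja1, the gap junction protein connexin 43, was over 100 CPM in 15 of 15 cycling and 42 of 55 other cells, with a log2 ratio of 0.57 that turned to -0.46 under the 200 CPM rule. Srf, the factor that drives smooth muscle genes, had -0.05, and its partner Myocd was nearly unread.

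Basal keratins and transcription factors were read in both classes. All 12 genes were measured, and the median was -0.31. Of these genes 2 were at least 2-fold lower and none higher, beside 19.9% lower and 17.5% higher over all genes. Averaged as log2 values per cell, the list median was 0.06 and that of all genes 0.16, so the direction depended on the average. Without the 6 cells with luminal, milk protein or fibroblast genes it was -0.24. The genes took a median of 0.407% of assigned reads in cycling cells (range 0.0362 to 0.783%) and 0.595% in other cells (range 0.133 to 1.16%).

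Krt14, a keratin of the basal layer, ranged from 89.3 to 5512 CPM in cycling cells (median 2025) and from 572 to 9203 CPM in other cells (median 3191), with a log2 ratio of -0.30 that turned to 0.050 when 5 rule genes were required. Its partner Krt5 ranged from 0 to 1591 CPM in cycling cells (median 84.3) and from 0 to 1973 CPM in other cells (median 214) and reached 100 CPM in 6 of 15 cycling and 40 of 55 other cells. The Krt5 ratio of -0.61 went to -1.49 without cycling cell 52 and to 0.28 when 5 rule genes were required. Krt17 (-1.60) and Krt15 (-1.35), stress-inducible and progenitor keratins, were the 2 genes past 2-fold. Krt17 was nevertheless above the median of the others in 10 of 15 cycling cells, since its mean in other cells rested on a few high ones, up to 4719 CPM.

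Trp63, the master regulator of basal identity, ranged from 11.9 to 589.7 CPM in cycling cells (median 197) and from 0 to 1956 CPM in other cells (median 97.2). Its log2 ratio of -0.33 and a difference of 0.26 in mean log2 values had opposite signs. The factors Snai2, Id4 and Mef2c had log2 ratios of -0.16, -0.04 and 0.24, which changed sign in 5, 12 and 2 alternatives. Sox10, a factor of neural crest and of mammary progenitors, had -0.93 and reached 100 CPM in 1 of 15 cycling and 9 of 55 other cells. The ranges of all 5 factors overlapped between the classes.

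Adhesion and basement membrane genes had a median near 0. Of 17 genes, 15 were measured and none passed 2-fold, beside 17.5% higher and 19.9% lower over all genes. The median was -0.04, which changed sign in 6 alternatives and was -0.010 without the 6 cells with luminal, milk protein or fibroblast genes. Itga6 and Itgb1, the laminin-binding integrin chains, had log2 ratios of 0.23 and -0.27, and the type IV collagens Col4a1 and Col4a2 0.01 and -0.33. Col17a1, a hemidesmosome collagen, ranged from 21.3 to 1721 CPM in cycling cells (median 283) and from 0 to 2195 CPM in other cells (median 79.7) and was above the median of the others in 13 of 15 cycling cells. Its ratio of 0.80 turned to -0.82 when 200 CPM was required.

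Among other basal marker genes, 15 of 18 were measured, 3 were at least 2-fold lower, none was higher, and the median was -0.31. Averaged as log2 values per cell it was 0.19, with 9 genes above 0, so this direction too depended on the average. Nrg1, a growth factor that basal cells send to luminal cells, ranged from 14.9 to 3798 CPM in cycling cells (median 1940.4) and from 96.3 to 16691 CPM in other cells (median 2182), with a log2 ratio of -1.02. It was lower under all 35 alternatives (-1.30 to -0.70), although the ranges overlapped and 6 of 15 cycling cells lay above the median of the others. Lgr5, a receptor of R-spondins, was at 0 in all 15 cycling cells and reached 100 CPM in 3 of 55 others. Sparc, a matrix protein, and Igfbp5, a binding protein of insulin-like growth factors, had log2 ratios of -0.56 and -0.44. In the published signatures of the study, 171 basal genes had a median of -0.32 (14 higher and 40 lower by 2-fold) and 28 luminal genes -0.18 (3 higher and 6 lower), beside 17.5% higher and 19.9% lower over all genes. Averaged as log2 values per cell these medians were -0.032 and 0.12.

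Mitosis genes outside the rule were higher as a group. Of 52 genes, 47 were measured, 34 were at least 2-fold higher and 1 (Ncapd2) lower, beside 17.5% and 19.9% over all genes. The median log2 ratio of the list was 1.71, or 1.74 without the 6 cells with luminal, milk protein or fibroblast genes. These genes share their timing with the rule genes, so this follows the choice of cells and is no independent result. They took a median of 0.406% of assigned reads in cycling cells (range 0.0622 to 1.45%) and 0.0891% in other cells (range 0.00772 to 0.697%), and 14 of 15 cycling cells lay above the median of the others. Conversely, 20 of 55 other cells held at least 3 of the 52 genes at 100 CPM, against 12 of 15 cycling cells, so the limit of the rule left cells with mitotic transcripts among the others.

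Prc1, which bundles microtubules of the central spindle, ranged from 0 to 1965 CPM in cycling cells (median 63.9) and from 0 to 498 CPM in other cells (median 0), with a log2 ratio of 3.39, or 2.73 without cell 9. Kif23, its partner motor in cytokinesis, had 3.21 (163 against 8.69 CPM), or 2.22 without cell 17. Kif11, the motor that separates the spindle poles, had 2.06, and Ckap2l, a spindle protein, 3.78, or 2.67 without cell 9. For Prc1 13 of 15 cycling cells lay above the median of the others, which was 0 CPM.

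The condensin subunit Smc2, which compacts chromosomes, ranged from 0 to 1902 CPM in cycling cells (median 203) and from 0 to 1198 CPM in other cells (median 36.3), with a log2 ratio of 1.84. Smc4, its partner, had 0.54. Some large ratios rested on 1 cell. In Bora, an activator of mitotic kinases, cell 44 held 95.5% of the summed CPM of the class, and the log2 ratio of 3.79 went to 0.23 without it. In Cdc25b, a phosphatase that activates Cdk1, cell 9 held 96.2%, and 2.60 went to 0.17.

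**Figure D3:**
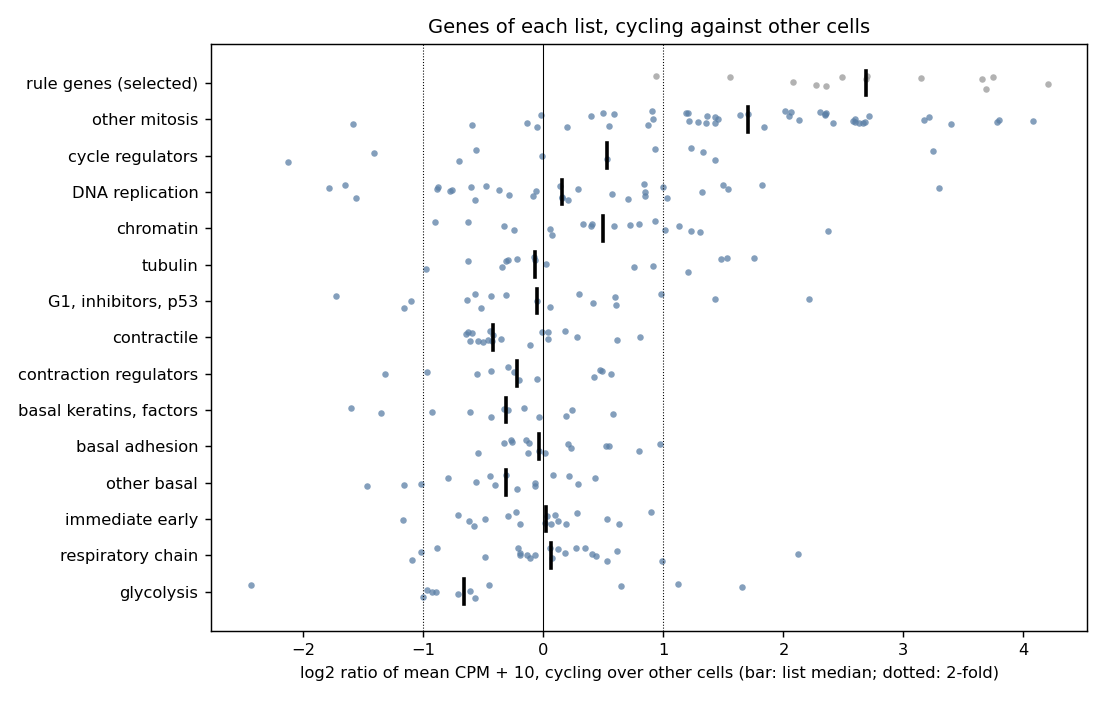
Each point is a gene whose mean reached 10 CPM, placed by its log2 ratio of mean CPM plus 10 in 15 cycling over 55 other cells; bars are list medians and dotted lines mark 2-fold. Rule genes (grey) and other mitosis genes lie mostly to the right, contractile genes cluster between -0.64 and 0.80 with a median of -0.42, and DNA replication genes spread to both sides.

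DNA replication genes, which peak in S phase, had a median close to that of all genes. Of 39 genes, 31 were measured, 6 were at least 2-fold higher and 3 lower, beside 17.5% and 19.9% over all genes. The median was 0.15, which went to -0.05 without cycling cell 23. It was 0.24 without the 6 cells with luminal, milk protein or fibroblast genes. Averaged as log2 values per cell the list median was 0.35, with 23 of 31 genes above 0, and that of all genes 0.16. These genes took a median of 0.101% of assigned reads in cycling cells (range 0.0239 to 0.443%) and 0.0627% in other cells (range 0.00127 to 0.616%). By this share 11 of 15 cycling cells lay above the median of the others. At least 3 of them reached 100 CPM in 9 of 15 cycling cells and in 19 of 55 others, and the highest share was in a cell outside the class.

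Pcna, the sliding clamp of DNA polymerase, ranged from 0 to 355 CPM in cycling cells (median 16.0) and from 0 to 692 CPM in other cells (median 3.83), with a log2 ratio of 0.21 that went to -0.41 without cell 23. The MCM helicase genes went in different directions, from -0.57 for Mcm4 and -0.37 for Mcm3 to 0.84 for Mcm6 and 1.54 for Mcm5. The Mcm5 ratio went to -0.07 without cell 22, which held 80.9% of the summed CPM, that of Mcm6 to 0.22 without cell 52, and that of Mcm3 to 0.36 without other cell 55. Pola1, the catalytic subunit of the polymerase that primes synthesis, was above the median of the others in 12 of 15 cycling cells (0.57), as was Slbp, which stabilizes histone transcripts (0.84). Rrm1 and Rrm2, the subunits of ribonucleotide reductase, had -0.78 and -0.88. The former went to 0.01 without other cell 29, and single cells among the others reached 6139.5 and 1432 CPM.

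**Figure D4:**
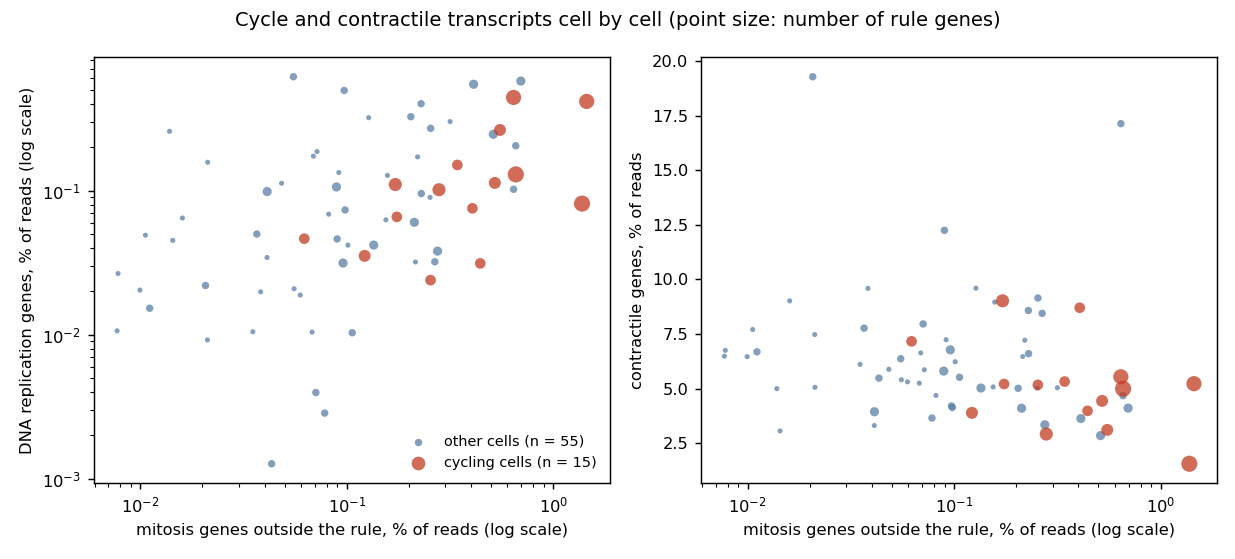
Each point is a cell, red for 15 cycling and blue for 55 other cells and larger with more rule genes; the horizontal axis is the percent of reads in mitosis genes outside the rule (log scale). On the left, the percent in DNA replication genes (log scale) is high in some cells of either class; on the right, the percent in contractile genes is between 1.55 and 9.02% in cycling cells and reaches 19.3% among the others.

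Cycling cells differed among themselves. Cells 23 and 52 combined 7 rule genes with the highest shares of DNA replication reads in the class, 0.415 and 0.443%, and 10 and 7 replication genes at 100 CPM. Cell 9 held 8 rule genes and 1.38% of reads in other mitosis genes, but 0.0812% in replication genes. Cell 22 held 8 rule genes with 0.659% and 0.129%. At the other end, cell 67 held 3 rule genes, 0.0622% of reads in other mitosis genes and no replication gene at 100 CPM, and cells 47, 44 and 60 held 1 replication gene each. Thinned to 50000 reads, the 15 cells had 3 to 11 rule genes with a read, and the others 0 to 7.

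Transcription regulators of the cycle were sparsely read. Of 17 genes, 11 were measured, with a median of 0.53. Of these genes 4 were at least 2-fold higher and 2 lower, beside 17.5% and 19.9% over all genes. Foxm1, which drives the later wave, ranged from 0 to 1401 CPM in cycling cells (median 0) and from 0 to 1172 CPM in other cells (median 0), and its log2 ratio of 0.93 went to -0.26 without cell 9. Rbl1 (p107), a pocket protein and E2F target, was over 100 CPM in 3 cycling cells and in none of the others (3.25, or 2.50 without cell 41). Tfdp1, the partner of E2F factors, was lower (-2.13), with 3.54 against 49.4 CPM on average.

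Of 22 genes of G1, inhibitors of cyclin-dependent kinases and p53 targets, 17 were measured, and the median was -0.06. At least 2-fold higher were 2 and lower 3, beside 17.5% and 19.9% over all genes. Cyclins Ccnd1 and Ccnd2, which carry growth signals into the cycle, had log2 ratios of -0.63 and -0.06, which changed sign in 2 and 15 alternatives. Cdkn1a (p21), an inhibitor of the cycle, ranged from 0 to 1179 CPM in cycling cells (median 169) and from 0 to 2919.5 CPM in other cells (median 238) (-0.57). Btg2, an antiproliferative gene, had -0.52 and was above the median of the others in 3 of 15 cycling cells. With 1 read per gene Cdkn1a turned to 0.71, and with 5 rule genes Btg2 turned to 0.26. Cdkn2a and Cdkn2b had no read in any of the 70 cells.

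Of 22 chromatin and nuclear genes, 18 were measured, 14 had a ratio above 0, and the median was 0.50. At least 2-fold higher were 5 and lower none, beside 17.5% and 19.9% over all genes. Lbr, the lamin B receptor of the nuclear envelope, ranged from 30.8 to 1299.9 CPM in cycling cells (median 495) and from 0 to 1263 CPM in other cells (median 66.7), with a log2 ratio of 1.31. Lmnb1, lamin B1, had 2.37 (1.52 without cell 9), and Hmgn1, a nucleosome-binding protein, 1.01. Lbr and Hmgn1 were each above the median of the others in 13 of 15 cycling cells. Lmna, lamin A, had -0.25.

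Of 17 tubulins and microtubule proteins, 15 were measured, with a median of -0.07. At least 2-fold higher were 4 and lower none, beside 17.5% and 19.9% over all genes. Stmn1, stathmin, which destabilizes microtubules, ranged from 8.59 to 369 CPM in cycling cells (median 63.9) and from 0 to 287 CPM in other cells (median 6.04). All 15 cycling cells lay above the median of the others, and the log2 ratio was 1.75. Tubb4b and Tubb5, beta-tubulins, had 1.48 and 0.92, and Tubb6 -0.63. Tubb5 turned to -0.12 with 1 read per gene. Tubulin, histone and HMG genes have near-identical copies, so their counts are uncertain.

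Lists outside the cycle held genes past 2-fold in both directions, beside 17.5% higher and 19.9% lower over all genes. Of 22 measured respiratory chain genes 1 was at least 2-fold higher (Sdha) and 2 lower, with a median of 0.06. Of 12 glycolysis genes 2 were higher (Tpi1 and Gpi1), 2 lower, and the median was -0.66. Ribosome biogenesis genes gave 3 higher and 2 lower of 15, and nucleotide and one-carbon genes 4 higher and 4 lower of 19. Immediate early genes, which are induced by handling of tissue, had a median of 0.02 over 18 genes, with 1 lower (Atf3), and heat shock genes 0.28 over 15 genes, with 1 lower (Hspb8).

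Fos, an immediate early factor, ranged from 181 to 8942 CPM in cycling cells (median 4331) and from 139 to 15852 CPM in other cells (median 2699). Of 22 matrix genes 1 was higher and 2 lower, with a median of -0.08. Of 21 growth factor and Wnt genes 1 was higher and 6 lower, with a median of -0.36. Among the 8 measured genes of prolactin and steroid hormone signalling none passed 2-fold (0.39). Of 20 luminal genes 7 were measured, 2 of them lower, and 4 of 7 milk protein genes were measured, none past 2-fold. Of 8 marker genes each of fibroblasts, pericytes, Schwann cells, endothelium and immune cells, 3, 3, 5, 1 and 2 were measured, of which 0, 1, 1, 0 and 2 were at least 2-fold higher and 1, of fibroblasts, was 2-fold lower. Milk protein genes took a median of 0.0155% of assigned reads in cycling cells (range 0 to 0.150%) and 0.0111% in other cells (range 0 to 0.676%).

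Genes were also named by size over the whole table. Of 4678 genes whose mean reached 50 CPM in one class or both, 19.1% were at least 2-fold higher and 17.3% at least 2-fold lower in cycling cells. Genes were ranked by the smallest of 3 values: the log2 ratio, the ratio without the highest cell, and the difference of mean log2 values. The 15 highest were Prc1, Pitpnb, Ahctf1, Ppp1r15b, Slc30a5, Sdha, Kif11, Yif1a, Kif23, Elovl5, Ckap2l, Ywhah, Pmf1, Cenpm and Arl6ip1. Prc1, Kif11, Kif23 and Ckap2l are on the mitosis list, whereas the rest are on none of the cycle lists. Among the rest, Pmf1 and Cenpm encode centromere and kinetochore proteins.

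Arl6ip1, a shaping protein of the endoplasmic reticulum, ranged from 0 to 939.9 CPM in cycling cells (median 291) and from 0 to 658 CPM in other cells (median 18.2), with a log2 ratio of 1.86. It was above the median of the others in 14 of 15 cycling cells. Pitpnb, a phosphatidylinositol transfer protein, was above it in 14 of 15, with 2.66 (392 against 53.4 CPM). Ahctf1, a nuclear pore protein that returns to chromatin at the end of mitosis, had 2.36 (210.0 against 33.0 CPM), and reached 100 CPM in 7 of 15 cycling and 5 of 55 other cells. Sdha, a subunit of succinate dehydrogenase, had 2.13, whereas Sdhb of the same complex had -1.02. Ppp1r15b, a phosphatase subunit, had 2.33, and the zinc transporter Slc30a5 3.00.

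The 15 lowest were Pkm, Sec31a, Usp7, Bcap31, Kif1b, Tbl1x, Xpr1, Rheb, Ap3d1, Usp10, Ltbp3, Zfp740, Pcmtd1, Wnt5a and Pgf. Pkm, pyruvate kinase, ranged from 0 to 214 CPM in cycling cells (median 44.6) and from 0 to 2378 CPM in other cells (median 92.3), with a log2 ratio of -2.44 (-0.54 when 2 rule genes were required), and 3 of 15 cycling cells lay above the median of the others. Sec31a, a coat protein of vesicles that leave the endoplasmic reticulum, had -1.52 (65.1 against 205 CPM) and reached 100 CPM in 3 of 15 cycling and 29 of 55 other cells, and its ratio was -0.22 with 1 read per gene. Rheb, an activator of mTORC1, had -1.55, which turned to 0.026 when the rule counted genes at 50 CPM. Wnt5a, a Wnt ligand, had -2.78, or -0.12 with the rule at 50 CPM. Pgf, a ligand of VEGF receptors, had -3.37, or -0.73 with 1 read per gene. Pgf was nonetheless above the median of the others in 8 of 15 cycling cells, since its mean in other cells came from a few high ones. Zfp740 had the lowest ratio of the set, -3.94, and at most 16.4 CPM in any cycling cell. Its median in other cells was only 4.33 CPM, and cell 15 held 41.7% of their summed CPM. The difference of its mean log2 values was -1.07.

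**Figure D5:**
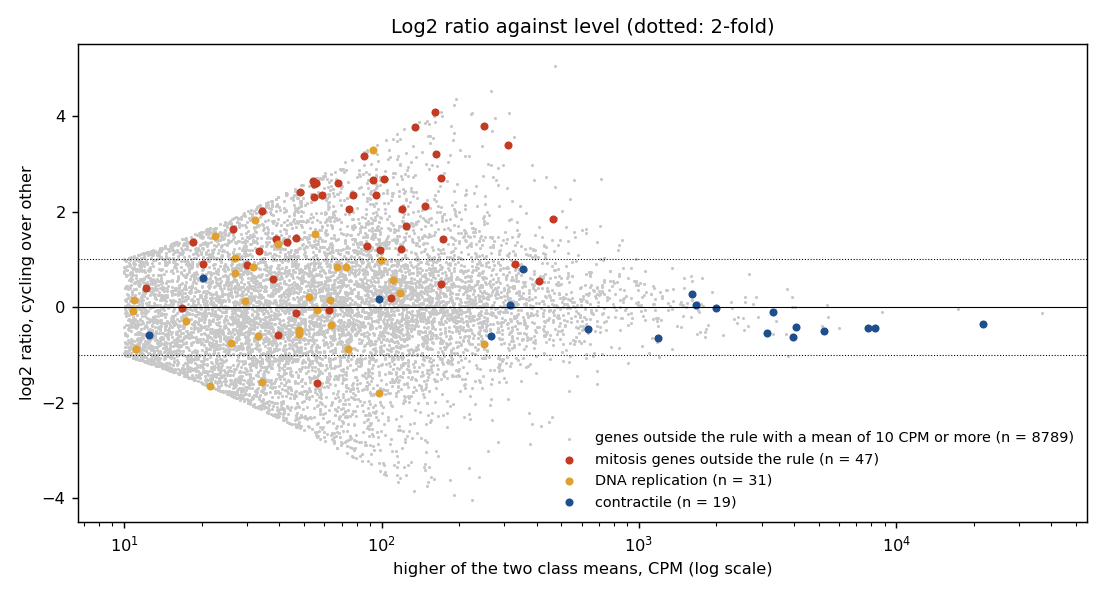
The log2 ratio of cycling over other cells (vertical) is plotted against the higher class mean in CPM (horizontal, log scale) for 8789 genes outside the rule, with mitosis genes in red, DNA replication genes in orange and contractile genes in blue; dotted lines mark 2-fold. Grey points fan out at low levels and narrow above 1000 CPM, where most contractile genes lie just under 0, and red points lie mainly above the upper dotted line.

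The 5 adult cells that met the rule, 2 of the title set marked (2) and 3 of the unmarked set, were set beside the 134 other retained adult cells. All 5 held at least 7 of the 11 core basal genes. With so few cells, 20.3% of 8829 genes were at least 2-fold higher and 39.6% at least 2-fold lower, and the median of all genes was -0.52. Mitosis genes outside the rule had a median of 3.85 (48 of 49 measured genes at least 2-fold higher), and DNA replication genes 1.46 (22 of 29). For the mitosis genes, Prc1 among them, this again follows the choice of cells and is no independent result. The contractile median was -0.79, with 8 of 18 measured genes at least 2-fold lower. Mylk (-2.30) and Myh11 (-2.14) were among them, whereas Acta2 was not (0.06). For pregnancy these ratios were -0.43, -0.50 and -0.35. The classes set side by side are not alike. The 5 adult cells held 4 to 11 rule genes, and the cycling pregnancy cells 3 to 8. No rule gene reached 100 CPM in 124 of the 134 other adult cells, against 28 of the 55 other pregnancy cells. With 5 rule genes required, Mylk had -0.91 in pregnancy. Whether the stages differ in this was not tested.

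The range of Mylk in the 5 adult cells was 90.1 to 1075 CPM, and the median of the other adult cells was 2528 CPM, so that all 5 lay below it. For Myh11 the values were 133 to 1395 and 1945 CPM, again with all 5 below. Arl6ip1 had a log2 ratio of 3.41 in adult and 1.86 in pregnancy cells, and Prc1 5.81 and 3.39. The genes named from the whole table did not all keep their direction in adult cells. Of the 15 highest, Pitpnb (-0.81), Slc30a5 (-1.75), Yif1a (-0.24) and Sdha were below 0, and the rest above. Of the 15 lowest, Pgf (2.48), Tbl1x (1.77), Usp10, Bcap31, Rheb, Usp7, Ap3d1 and Wnt5a were above 0, and the rest below. Sdha, which was higher in cycling pregnancy cells, had -1.74 in adult cells, but this direction depended on the average. The difference of its mean log2 values was 0.32 in adult cells, where that of all genes had a median of 0.27. Its median was 9.01 CPM in the 5 adult cells and 0 CPM in the other adult cells.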

How the data were processed

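Single-cell RNA-seq of mouse mammary cells was analysed from the deposited counts of read pairs per Entrez gene, 1 file per cell. According to the submitters' processing notes, the authors aligned reads to mm10 with Subread 1.5.0 and assigned them with featureCounts, and these raw counts were deposited without normalization. They carry no molecular identifiers, so intervals cover counting error only, and the strand setting of the counting is not given in the sources used here. A table of the whole series holds the same counts and was not used.

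Of 27179 gene IDs, 1904 had no symbol in RefSeq (1.66% of reads) and were left out with 15 mitochondrial and 124 ribosomal protein genes, which left 25136 genes. Cells with fewer than 50000 assigned read pairs or 1000 genes, and cell 71, were left out. No doublet caller was run. Counts were scaled to CPM, and classes were compared by the log2 ratio of mean CPM with a pseudocount of 10 CPM, which understates differences of low genes. Shares have exact Clopper-Pearson 95% intervals. Cells were thinned to 50000 reads with a fixed seed. Since each sample is 1 cell and no animals are named, no test between cells was made. The scripts were tested on simulated data.

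The members and the 30 gene lists were chosen with earlier results of these data known. Genes named from the whole table were read, once cells were thinned, in 25% or more of the class with the higher mean, had a mean of 50 CPM or more in it, and had the same sign of the log2 ratio, the ratio without the highest cell and the difference of mean log2(CPM + 10). They were ranked by the smallest of these 3, and the 15 highest, the 15 lowest and the 10 highest outside the cycle lists were named, besides genes of the lists. Chka was named after its value was seen. Promoter sequences and coordinates are from RefSeq (GRCm38.p6). In all, 35 alternatives were tried, among them other limits of the rule, pseudocounts, scalings, minimum levels and leaving out each cycling cell. Python 3.11.15, numpy 2.4.6, pandas 2.3.3, scipy 1.17.1 and matplotlib 3.10.9 were used.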

Additional observations from a re-analysis of the deposited data

Results flagged for a closer look

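Signal of the rule genes was also found in pregnancy cells outside the comparison. Cell 71, which was set aside, had 7 of the 14 rule genes at 100 CPM, with 433 of 183255 reads in them (0.236%, exact interval 0.215 to 0.260%). In the 4 cells below the read minimum, 100 of 93648 reads fell in the rule genes (0.107%, interval 0.0869 to 0.130%), against 0.0317% over all reads of the 55 other cells and 0.288% over those of the 15 cycling cells. These 4 cells had 0, 4, 6 and 3 rule genes at 100 CPM, a level that 2 or 3 reads reach at their depth.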

How the results depend on the processing

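Over 35 alternatives the contractile and mitosis medians kept their sign, and the adhesion, basal keratin and factor, and DNA replication medians changed sign in 6, 1 and 1. For single genes the alternatives were run on the 15 highest, the 15 lowest and a part of the list genes, not on every gene named. Among the genes run that were past 2-fold, 9 values changed sign. The number of cycling cells went from 15 to 23 at 50 CPM, 9 at 200 CPM, 24 with 2 rule genes, 6 with 5 and 50 with 1 read per gene after thinning. The percent of genes higher (19.1) and lower (17.3) by 2-fold was 17.4 and 16.1 at 50 CPM, 21.9 and 20.8 at 200 CPM, 24.1 and 26.1 with 5 rule genes, and 22.6 and 20.2 with 1 read. With 2 rule genes 16.1 were lower. It was 21.2 and 19.2 with a pseudocount of 1 CPM, 3.36 and 1.77 with 100 CPM, 8.44 and 0.470 for means of log2 values, and 21.0 and 18.6 for summed reads. It was 14.7 and 7.48 with a higher minimum level and 6.12 and 6.97 with none, and 20.3 were lower when scaling left out the 50 highest genes. Chosen after seeing the data were comparison with the cells without a rule gene (23.0 and 19.4), leaving out cells above 35% mitochondrial reads (21.4 and 19.9), and leaving out cells with luminal, milk protein or fibroblast genes (20.6 and 19.3). The contractile median was -0.56 with 2 rule genes, -0.13 at 50 CPM, -0.088 against cells without a rule gene and -0.056 with 1 read. The median of mitosis genes outside the rule was 2.45 and 0.59 with pseudocounts of 1 and 100 CPM, 0.91 for means of log2 values and 2.40 against cells without a rule gene. Means of log2 values raised the median of all genes by 0.21. They turned the medians of contraction regulators (0.0090), tubulin (0.32), G1 (0.068) and growth factor genes (0.033) above 0.

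With 1 read as the limit Usp7 (0.74), Xpr1 (0.057), Rheb (1.34), Usp10 (0.55) and Krt15 (0.82) changed sign, as did Bcap31 (0.16) with 2 rule genes and Rheb (0.026) at 50 CPM. Mcm5 (1.54) was -0.071 without cell 22, -0.78 without the cells with luminal, milk protein or fibroblast genes, and 1.63 at most when a cell was left out. Leaving out each cycling cell gave medians of -0.46 to -0.34 for contractile, -0.38 to -0.24 for basal keratin and factor, -0.19 to 0.05 for adhesion, -0.05 to 0.21 for DNA replication and 1.504 to 1.86 for mitosis genes, with 18.9 to 19.9% of genes higher and 17.1 to 18.2% lower. The cause of these shifts was not tested. No paired analysis was possible because cell numbers only name cells and no result comes from a test. Depth limits genes near 100 CPM, and with 1 unnamed set of animals no difference has a replicate check.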

Other observations

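DNA replication transcripts were also found at high levels outside the cycling class. Of the 55 other cells, 21 had a larger share of assigned reads in DNA replication genes than the median cycling cell. Conversely, 11 of 15 cycling cells had a larger share than the median other cell. Cell 59 had 10 replication genes at 100 CPM with 0 rule genes, and cell 48 had 9 with 0. Cells 55 and 66 had 7 each with 1 rule gene. In cell 59 these genes took 0.320% of reads and other mitosis genes 0.128%, and in cell 54, with 2 rule genes, 0.575% and 0.697%. Cell 59 held 9 of the 11 core basal genes and 9.60% of reads in contractile genes, the highest contractile share among the 28 cells without a rule gene.

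Enzymes of nucleotide and one-carbon synthesis differed in direction. Gmps, the last enzyme of GMP synthesis, had a log2 ratio of 1.67 and was above the median of the others in 13 of 15 cycling cells. Cad, which starts pyrimidine synthesis, had 2.77, which went to 0.21 without cell 17, and Umps, which ends it, had -2.60, or -1.62 without other cell 31. Phgdh, the first enzyme of serine synthesis, had -1.13. Among ribosome biogenesis genes Nop56, of the particles that modify ribosomal RNA, had 1.47, whereas Nop2, a ribosomal RNA methyltransferase, had -3.35. Fn1, fibronectin, had -1.62 (-0.85 without other cell 59), and the insulin receptor gene Insr -1.60 (-0.97 without other cell 31), with 3 of 15 cycling cells each above the median of the others.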
